A study of Rattus norvegicus with 30 samples.

Results

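The capillary bed of the lung is lined by 2 kinds of endothelial cell, and 8 genes that mark them were followed here in sorted endothelial cells of the rat lung. The aerocyte genes were Car4, Tbx2, Prx, Fibin and Chst1, and the general capillary genes were Kit, Cd93 and Hilpda. The rule that gave them names each gene and holds no threshold on a measured value, and it was written with earlier results of these data known. All 8 were among the 30562 gene rows of the deposited table, and all 8 passed the filter on low counts that left 16171 genes for testing.

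The libraries came from wild-type rats 3 weeks after an operation, in 6 groups of 5. A sham operation was combined with a control diet (sham control), a vitamin A-deficient diet (sham deficient) or a vitamin A-excess diet (sham excess). The same 3 diets were combined with Glenn surgery, in which blood of the superior vena cava is led straight into a pulmonary artery (Glenn control, Glenn deficient and Glenn excess). Cells were taken as CD31+ lung cells, CD31 (Pecam1) being an adhesion molecule of endothelial cells, so each library is a bulk sample of many cells and of whatever other cells the sort let through. The labels number the replicates without saying whether each came from its own animal, so the p-values measure the spread between these libraries.

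Aerocytes are large, thin endothelial cells that face the alveolar epithelium and serve gas exchange. General capillary cells lie between them, take part in vessel tone and immune traffic, and act as progenitors that renew both kinds after injury. Signalling from epithelial VEGF-A to its receptor KDR is needed for aerocytes to form.

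Total estimated counts ranged from 22.03 to 77.65 M (mega) per library, with a median of 39.97 M, and 16717 to 18275 genes had a count. The pan-endothelial markers were all detected, with a summed level of 8468 to 10490 CPM (counts scaled by TMM to a library total of 1 M) in the 15 sham libraries and 5985 to 8675 CPM in the 15 Glenn libraries. After Glenn surgery 6 of these 9 markers were lower and 2 higher. Markers of other cells were present too. The 6 type 2 alveolar markers summed to 34800 to 59900 CPM with sham and 24750 to 56230 CPM with Glenn surgery, and all 6 were lower. The 5 type 1 alveolar markers summed to 604 to 997 CPM and 698 to 1797 CPM, with 4 higher and 1 lower. The 7 mural cell markers summed to 129.7 to 262 CPM with sham and 363 to 1350 CPM with Glenn surgery, the 7 lymphatic markers to 1099 to 2023 CPM and 2494 to 5124 CPM, and all 14 were higher. Of the 7 fibroblast markers, 6 were higher, with sums of 1275 to 3263 CPM and 1806 to 4693 CPM. Leukocyte markers summed to 13010 to 24450 CPM with sham and 8044 to 18850 CPM with Glenn surgery, or to 6.08 to 35.5 CPM and 4.72 to 18.1 CPM without Lyz2, which type 2 cells also express, and 2 of 4 tested were lower. Erythroid and platelet markers summed to 20.8 to 88.3 CPM and 21.3 to 82.02 CPM, with 2 of 3 tested lower and 1 higher. The globin genes Hba-a1 and Hbb were listed but not found under these names, so this sum says little of red cells. Alas2, the erythroid gene among those found, reached at most 5.155 CPM, in Glenn deficient replicate 2. Of 8 arterial markers 6 were higher and 2 lower, and of 7 venous markers 2 were higher and 4 lower, while 1 of 4 airway markers was higher. The part of these cells in the results below was not tested. Library names fell into 2 number ranges, A with 22 libraries and B with 8, the latter held by sham deficient, Glenn deficient and Glenn excess alone, and the fit behind each reported value held a term for this series. A further split not given by the labels was the level of the histocompatibility gene RT1-CE16, high in 13 libraries and low in 17, with all 5 sham excess libraries low.

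Reference promoters were at hand for 4 of the 8 genes, the aerocyte genes Car4 and Prx and the general capillary genes Kit and Hilpda, and are shown because Hilpda is a known target of the hypoxia-inducible factors (HIF) and the transcripts of the HIF subunits Hif1a and Epas1 were measured in the same libraries. The sequences are the 250 bases before the annotated start in RefSeq's GRCr8 build, 5′ to 3′ on the gene's own strand. Car4 lies on the plus strand (chr10:70325108-70325357), as do Prx (chr1:91914171-91914420) and Hilpda (chr4:58836213-58836462), and Kit on the minus strand (chr14:32978813-32979062). Capitals mark the HIF core ACGTG or GCGTG, read on either strand.
Car4: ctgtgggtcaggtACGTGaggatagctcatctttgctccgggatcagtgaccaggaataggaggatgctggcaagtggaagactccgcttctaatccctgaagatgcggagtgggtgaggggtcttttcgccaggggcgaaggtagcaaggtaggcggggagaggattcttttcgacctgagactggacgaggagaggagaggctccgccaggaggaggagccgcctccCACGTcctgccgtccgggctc
Prx: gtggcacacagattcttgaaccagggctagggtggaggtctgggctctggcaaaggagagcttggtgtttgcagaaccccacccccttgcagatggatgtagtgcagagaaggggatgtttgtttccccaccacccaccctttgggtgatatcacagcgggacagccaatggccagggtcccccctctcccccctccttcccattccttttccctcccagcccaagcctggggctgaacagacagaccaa
Kit: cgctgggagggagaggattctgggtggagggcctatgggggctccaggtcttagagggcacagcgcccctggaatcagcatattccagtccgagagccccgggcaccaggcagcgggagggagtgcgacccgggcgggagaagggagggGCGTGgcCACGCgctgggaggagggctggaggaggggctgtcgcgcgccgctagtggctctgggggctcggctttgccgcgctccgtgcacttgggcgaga
Hilpda: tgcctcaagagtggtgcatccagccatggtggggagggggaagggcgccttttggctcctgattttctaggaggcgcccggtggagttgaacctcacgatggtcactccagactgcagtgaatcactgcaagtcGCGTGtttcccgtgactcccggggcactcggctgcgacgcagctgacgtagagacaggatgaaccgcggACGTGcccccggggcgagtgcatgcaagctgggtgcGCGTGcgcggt
Hilpda held 3 cores, at 116, 47 and 11 bases before the start, Car4 held 2 (237 and 21 bases before it), Kit 2 (101 and 94 bases before it) and Prx 0. Of all 33469 RefSeq promoters of this length, 36.7% held at least 1 core and 16% at least 2. How many held 3, as in Hilpda, was not counted. The letters CACCC, bound by KLF factors, occurred 5 times in Prx and once each in Car4, Kit and Hilpda, on either strand. At least 1 match was found in 49.2% of promoters and at least 2 in 18.9%, and the share with 5 was not counted. Such matches describe the letters in these windows and were not tested for binding.

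On the control diet most of the capillary genes were at a lower level in the Glenn libraries. A gene is called higher or lower where edgeR's p, adjusted over all 16171 genes, was under 0.05. Of the 8 genes 6 were lower (Car4, Tbx2, Prx, Kit, Cd93 and Hilpda), against 13.1% of all genes tested, and 1 (Chst1) was higher, against 11.8%. On the deficient diet 4 were lower (Car4, Tbx2, Prx and Kit; background 13.7%) and Chst1 was higher (background 13.7%). The excess diet gave the same 5 calls, with 10.4% of all genes lower and 11.6% higher, and 3 of them were left without Glenn excess replicate 2 and within series A. Averaged over the 3 diets 6 were lower (background 24.7%) and 1 higher (background 23.4%), although Cd93 and Hilpda turned to values above 0 when libraries were scaled on their pan-endothelial markers. Fibin had no call in any of these 4 comparisons. The median log2 change of the 8 genes averaged over diets was -0.45, against -0.01 for all genes. Fewer cells of a type and less RNA of a gene per cell cannot be told apart in such bulk libraries. The pan-endothelial scaling moved the median log2 change of all genes to 0.34, a shift of the whole scale from -0.01. Relative to it the averaged changes were -0.56 for Kit, -0.19 for Cd93, -0.31 for Hilpda and 0.14 for Fibin. Such scaling moves every gene by nearly the same amount. These relative values therefore return nearly the reported changes by construction and are no separate test of them.

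**Figure D1:**
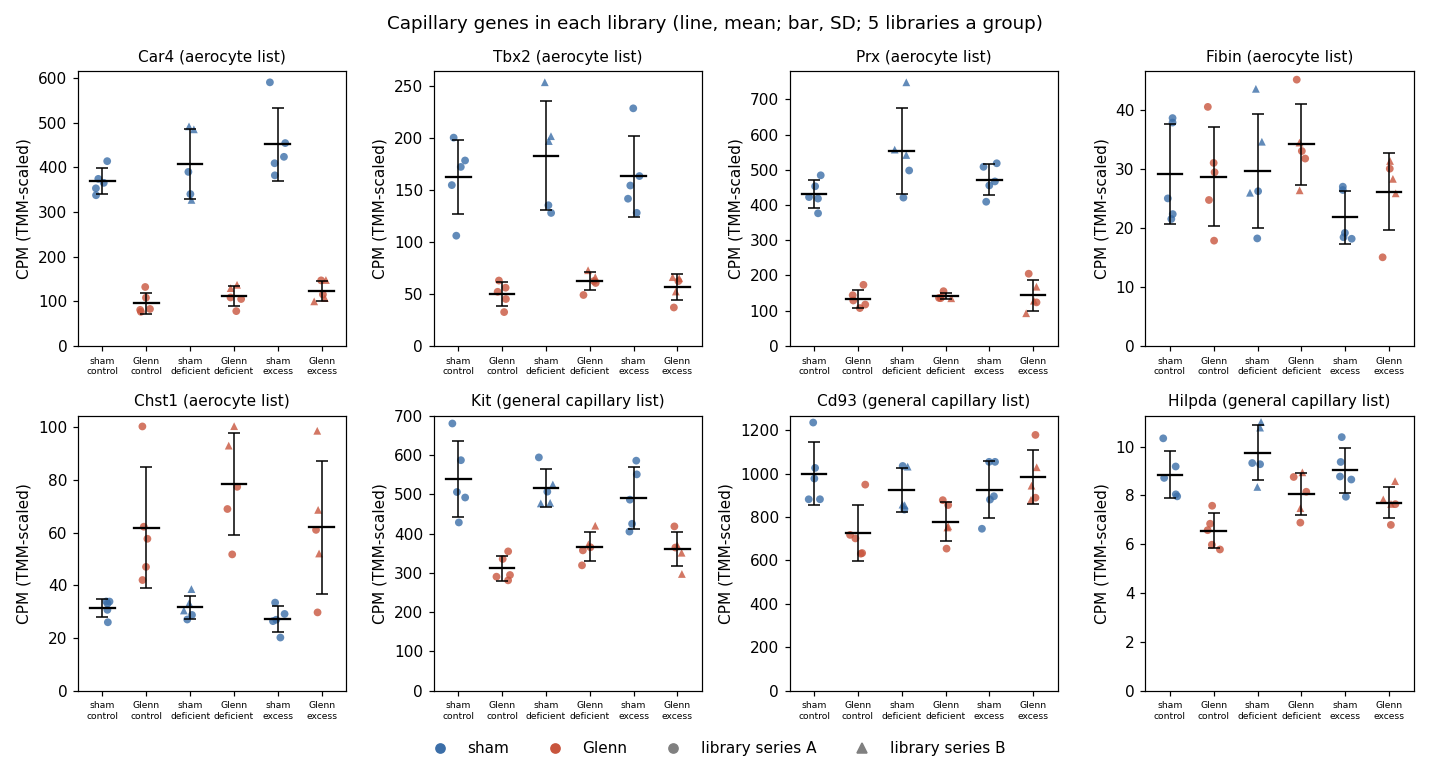
Each panel plots 1 gene, with the TMM-scaled CPM of every library on a linear axis from 0 and the 6 groups along the x axis; circles are series A and triangles series B libraries, horizontal lines are means and bars SD (n = 5). Car4, Tbx2 and Prx show 15 Glenn libraries below all 15 sham libraries, Chst1 is higher in 14 of 15 Glenn libraries than in any sham library of the 3 diets, and Fibin overlaps throughout.

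Car4 (ENSRNOG00000002916) encodes carbonic anhydrase 4, a membrane-anchored enzyme that converts carbon dioxide and bicarbonate at the capillary surface, and is the marker after which Car4-high capillary cells were named. In the sham control libraries Car4 stood at 353, 374, 414, 365 and 338 CPM, and in the Glenn control libraries at 132, 108, 76.2, 82.6 and 80.6 CPM. On the deficient diet the sham values were 389.9, 340.2, 492, 327 and 485 CPM and the Glenn values 105, 108, 77.8, 137 and 129 CPM. On the excess diet they were 591, 454, 409, 382 and 424 CPM with sham and 115, 147, 148, 99.6 and 107 CPM with Glenn surgery. No Glenn library reached any sham library, the highest Glenn value being 148 CPM and the lowest sham value 327 CPM. A gap of this kind, all 15 Glenn below all 15 sham libraries, was found for 2.73% of the genes tested. The log2 change was -1.94 (SE 0.16, adjusted p 4.17e-10) on the control diet, -1.84 (SE 0.16, adjusted p 1.45e-09) on the deficient diet and -1.98 (SE 0.18, adjusted p 3.64e-09) on the excess diet. Averaged over diets Car4 fell by 73.6%, a 3.79-fold lower level with a log2 change of -1.92 (SE 0.10, adjusted p 1.32e-15).

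Among the other carbonic anhydrases, Car8 (a member without enzyme activity) was lower by 0.77 and the membrane enzyme Car14 by 0.43 on the log2 scale, averaged over diets, the latter becoming -0.07 (adjusted p 0.57) with pan-endothelial scaling. The cytosolic enzyme Car2 had a log2 change of -0.16 (SE 0.06, adjusted p 0.0307), which was 0.20 when the libraries were scaled on the pan-endothelial markers. Car4 fell the most of the 4 carbonic anhydrases examined, by 1.57 under that scaling.

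Tbx2 (ENSRNOG00000003517), a T-box transcription factor, had sham control values of 106, 155, 172, 178 and 200.4 CPM and Glenn control values of 32.5, 62.8, 45.05, 55.9 and 52.00 CPM. The sham deficient libraries held 128, 135, 197, 202 and 254 CPM and the Glenn deficient libraries 62.3, 60.5, 48.9, 66.1 and 72.8 CPM. The sham excess libraries held 229, 142, 128, 154 and 163 CPM and the Glenn excess libraries 36.9, 62.3, 52.3, 64.99 and 66.1 CPM. All 15 Glenn libraries again lay below all 15 sham libraries, by 72.8 against 106 CPM at the nearest point. The coefficient of variation over the 15 sham libraries was 24.1%, against 17.5% for Car4, and the lowest sham control library was replicate 1. Tbx2 changed by -1.71 (SE 0.18, adjusted p 4.94e-08), -1.44 (SE 0.19, adjusted p 1.03e-06) and -1.80 (SE 0.21, adjusted p 2.02e-07) on the 3 diets in the same order, and by -1.65 (SE 0.11, adjusted p 5.77e-13) averaged over them.

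Other T-box genes did not move as one with Tbx2. Tbx3, the nearest relative of Tbx2, fell from 273 ± 23.3 to 103 ± 18.4 CPM (SD, n = 15 per surgery), or by -1.40 (SE 0.07, adjusted p 2.60e-15) on the log2 scale. Tbx4, a factor of lung mesenchyme, rose with a log2 change of 0.39 (SE 0.12, adjusted p 0.0107), and the low-level Tbx5 with one of 0.52 (SE 0.19, adjusted p 0.024).

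Prx (ENSRNOG00000018369) encodes periaxin, a PDZ-domain scaffold best known from the myelin of Schwann cells. Its sham control values were 422, 418, 376, 453 and 484 CPM and its Glenn control values 129, 173, 144, 117 and 107 CPM. Sham deficient libraries had 421, 498, 542, 748 and 557 CPM and Glenn deficient libraries 155, 136, 135, 143 and 135 CPM. Sham excess libraries had 508, 409, 455, 467 and 518 CPM and Glenn excess libraries 123, 205, 128, 168 and 92.5 CPM. As with Car4 and Tbx2, no Glenn library overlapped a sham library (highest Glenn value 205, lowest sham value 376 CPM). The Glenn deficient libraries lay within 135 to 155 CPM, a narrower span than in any other group of Prx. The log2 change was -1.68 (SE 0.16, adjusted p 4.88e-09), -1.97 (SE 0.17, adjusted p 5.75e-10) and -1.72 (SE 0.18, adjusted p 3.11e-08) on the 3 diets in that order and -1.79 (SE 0.09, adjusted p 4.16e-15) averaged.

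The Schwann cell genes Sox10 and Cdh19 were at or near 0, with at most 0.192 and 0.112 CPM in any library. Drp2, the dystrophin-related protein that binds periaxin in myelinating cells, was at 4.15 ± 1.30 CPM with sham and 2.45 ± 0.759 CPM with Glenn surgery (SD, n = 15 per surgery), with a log2 change of -0.71 (SE 0.15, adjusted p 3.75e-04) that was -0.35 (adjusted p 0.0672) with pan-endothelial scaling.

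Chst1 (ENSRNOG00000007989), a sulfotransferase that adds sulfate to galactose of keratan sulfate chains, went the other way from the 3 genes above. Sham control libraries held 33.9, 25.99, 33.9, 30.7 and 33.1 CPM and Glenn control libraries 100.4, 47.04, 62.3, 42.04 and 57.7 CPM. The values were 27.04, 28.8, 38.6, 30.5 and 33.3 CPM in the sham deficient and 51.8, 77.5, 69.03, 93.1 and 100.5 CPM in the Glenn deficient libraries. On the excess diet they were 26.9, 20.2, 33.5, 26.4 and 29.2 CPM with sham and 29.7, 61.1, 68.7, 52.1 and 98.8 CPM with Glenn surgery. The groups did not overlap on the control and deficient diets, but the share of all genes with such single-diet gaps was not counted. On the excess diet Glenn replicate 1, at 29.7 CPM, lay inside the sham range, and over all diets 14 of 15 Glenn libraries were above every sham library. All 15 Glenn above all 15 sham libraries, which Chst1 missed by this library, was found for 3.1% of genes.

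The log2 change of Chst1 was 0.97 (SE 0.21, adjusted p 7.87e-04) on the control, 1.39 (SE 0.21, adjusted p 1.20e-05) on the deficient and 0.85 (SE 0.23, adjusted p 0.00854) on the excess diet, and 1.07 (SE 0.12, adjusted p 4.00e-08) averaged, a 2.10-fold higher level. The call on the excess diet was lost without Glenn excess replicate 2, at 0.67 (adjusted p 0.0786). It was also lost in series A alone, at 0.75 (adjusted p 0.0798). On this diet series A and low RT1-CE16 are the same 7 libraries (5 sham and 2 Glenn), and the fit of low RT1-CE16 libraries gave 0.75 (adjusted p 0.111). Of the other carbohydrate sulfotransferases, Chst3 rose by 0.97 (SE 0.17, adjusted p 1.60e-05) at a low level, from 2.74 ± 0.744 to 5.30 ± 1.999 CPM (SD, n = 15 per surgery), and Chst2 had a change of -0.40 (SE 0.13, adjusted p 0.0158) that was -0.04 (adjusted p 0.78) with pan-endothelial scaling.

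Fibin (ENSRNOG00000004699), a secreted protein named after fin bud initiation, showed no call for surgery. It stood at 22.4, 25.1, 21.6, 37.9 and 38.7 CPM in sham control and 17.9, 29.5, 24.8, 31.1 and 40.6 CPM in Glenn control libraries. Deficient-diet values were 18.2, 26.3, 34.7, 43.7 and 26.01 CPM with sham and 33.1, 45.2, 31.8, 26.4 and 34.5 CPM with Glenn surgery. Excess-diet values were 18.2, 18.4, 26.5, 27.04 and 19.2 CPM and 15.04, 30.1, 25.9, 31.4 and 28.4 CPM. The groups overlapped on all 3 diets. The averaged log2 change was 0.12 (SE 0.14, adjusted p 0.476), with a 95% interval of -0.15 to 0.40, so a change of the size of Car4, Tbx2, Prx or Chst1 lay outside the interval. Scaled on the pan-endothelial markers, the averaged change was 0.48 (adjusted p 0.00599).

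Fibin was not close to the other aerocyte genes over the 30 libraries, at Pearson r -0.28 (Car4), 0.02 (Tbx2), -0.10 (Prx) and 0.31 (Chst1). Within groups, as deviations from the 6 group means, its r was 0.52 with Tbx2, 0.32 with Prx, 0.13 with Chst1 and -0.33 with Car4. Over the 30 libraries its values followed those of Ogn, a small proteoglycan of connective tissue (Pearson r 0.90), and Tbx4 (0.86), more closely than any of the other 12718 genes compared. In deviations from the 6 group means the same 2 genes led, with 0.90 and 0.88. These correlations describe libraries that share their cells, depth and preparation, and carry no test. Fibroblast markers summed to 1275 to 2186 CPM in sham excess and 3066 to 4693 CPM in Glenn deficient libraries, the groups with the lowest and highest mean Fibin (21.9 ± 4.48 and 34.2 ± 6.88 CPM, SD, n = 5 each). Their part in the Fibin level was not tested.

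Kit (ENSRNOG00000002227) is the receptor tyrosine kinase for stem cell factor and marks general capillary cells and their progenitors. The sham control libraries held 428, 492, 680.0, 506 and 587 CPM and the Glenn control libraries 354, 294, 290.1, 335 and 281 CPM. Values on the deficient diet were 594, 506, 477, 478 and 525 CPM with sham and 365, 319, 357, 372 and 419.8 CPM with Glenn surgery. Those on the excess diet were 405, 585, 425, 486 and 550.5 CPM and 418, 364, 351, 369.7 and 297 CPM. Glenn and sham libraries did not overlap on the control and deficient diets, but the share of all genes with such single-diet gaps was not counted. On the excess diet Glenn replicate 1 (418 CPM) was above the lowest sham library. Over all diets 13 of 15 Glenn libraries were below every sham library.

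Kit fell by 42.2% on the control diet, with a log2 change of -0.79 (SE 0.12, adjusted p 4.61e-06). The change was -0.50 (SE 0.12, adjusted p 0.00148) on the deficient and -0.41 (SE 0.13, adjusted p 0.0184) on the excess diet, and -0.57 (SE 0.07, adjusted p 4.55e-08) averaged. On the excess diet the call was lost without sham excess replicate 2, at -0.34 (adjusted p 0.06), and without Glenn excess replicate 2, at -0.41 (adjusted p 0.0514). It was also lost among the 7 excess-diet libraries that are both series A and low in RT1-CE16, at -0.31 (adjusted p 0.204) in the fit of series A and -0.31 (adjusted p 0.164) in that of low RT1-CE16 libraries, and with the replicate block, at -0.38 (adjusted p 0.064). Scaled on the pan-endothelial markers, the change was -0.36 (adjusted p 0.017) on the control, -0.16 (adjusted p 0.319) on the deficient and -0.12 (adjusted p 0.558) on the excess diet, and -0.21 (adjusted p 0.0139) averaged. Mast cells also carry KIT, and their 6 markers summed to 2.34 to 9.18 CPM in sham and 2.56 to 18.1 CPM in Glenn libraries, with 1 marker higher and 1 lower. The receptor subunit Ms4a2, one of the 6, was at 0.205 CPM in sham and 0.182 CPM in Glenn libraries on average. Others of the 6 were higher, Hdc reaching 6.65 CPM in sham deficient replicate 2 and Cpa3 4.99 CPM in Glenn deficient replicate 4. The part of mast cells in the Kit values was not tested.

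Cd93 (ENSRNOG00000024799) is a transmembrane C-type lectin-like protein of endothelial cells that binds the matrix protein multimerin 2 (Mmrn2). Sham control libraries held 977, 882, 1235, 882 and 1026 CPM and Glenn control libraries 949, 718, 701, 634 and 631 CPM. On the deficient diet the values were 1035, 834, 1032, 854 and 857 CPM with sham and 654, 855, 878, 757 and 752 CPM with Glenn surgery. On the excess diet they were 896, 1054, 746, 880.1 and 1054 CPM and 1178, 889, 944, 878 and 1029 CPM. Glenn control replicate 1 stood above its 4 partners and inside the sham range. The groups overlapped on all 3 diets, and on the excess diet 0 of 5 Glenn libraries lay below every sham library and 1 lay above.

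The log2 change of Cd93 was -0.46 (SE 0.12, adjusted p 0.00481) on the control diet, -0.26 (SE 0.12, adjusted p 0.117) on the deficient diet and 0.13 (SE 0.13, adjusted p 0.538) on the excess diet, so only the control-diet change passed the threshold. Averaged over diets it was -0.20 (SE 0.07, adjusted p 0.0223). That averaged call was lost in series A alone, at -0.17 (adjusted p 0.182), among low RT1-CE16 libraries, at -0.10 (adjusted p 0.515), and without Glenn excess replicate 2, at -0.17 (adjusted p 0.0507). Among low RT1-CE16 libraries the control-diet change was -0.22 (adjusted p 0.525). Scaling on the pan-endothelial markers, which moved the median of all genes to 0.43, 0.33 and 0.28 on the control, deficient and excess diet, gave -0.04 (adjusted p 0.773) on the control and 0.42 (adjusted p 0.0074) on the excess diet, and 0.15 (adjusted p 0.0348) averaged. Relative to those shifts Cd93 stood at -0.47, -0.25 and 0.14 on the 3 diets and -0.19 averaged. Without that scaling the values were -0.46, -0.26, 0.13 and -0.20. This closeness holds by construction, since the scaling moves every gene by nearly the same amount, and so does not test the change. The cadherin Cdh5, whose values over the 30 libraries were most like those of Cd93 (Pearson r 0.78), is itself one of the pan-endothelial markers.

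Cd93 was also the member with the smallest p for a difference between diets. Glenn excess exceeded Glenn control libraries by 0.48 on the log2 scale, with an unadjusted p of 0.00116 and an adjusted p of 0.0623, which missed the threshold. Leaving out Glenn control replicate 1 gave 0.60 (adjusted p 0.00872), and DESeq2 gave 0.47 (adjusted p 0.0229), both past it. All 5 Glenn excess libraries were above all 5 Glenn deficient libraries, with a difference of 0.35 (adjusted p 0.795). In that comparison 0% of all genes were called, and the share of genes separated in this way was not counted. The test of surgery by diet gave Cd93 an unadjusted p of 0.00957 and an adjusted p of 0.717. Mmrn2, its partner, was higher in Glenn excess than in Glenn control libraries by 0.90 (SE 0.18, adjusted p 0.0106). For surgery, averaged over diets, Mmrn2 had no call at -0.08 (SE 0.09, adjusted p 0.508), but was 0.27 (adjusted p 0.00204) with pan-endothelial scaling. Igfbp7, another protein that binds CD93, had an averaged log2 change of -0.23 (SE 0.06, adjusted p 0.00356), which was 0.13 (adjusted p 0.0903) with pan-endothelial scaling.

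Hilpda (ENSRNOG00000070930), whose promoter holds the 3 HIF cores shown above, is a hypoxia-inducible protein of lipid droplets that inhibits adipose triglyceride lipase (Pnpla2). It was the member with the fewest reads, 206 to 520 estimated counts a library. Sham control libraries held 10.3, 9.19, 8.05, 7.96 and 8.72 CPM and Glenn control libraries 6.58, 5.79, 7.58, 6.84 and 5.98 CPM. The deficient diet gave 9.28, 9.33, 8.35, 10.8 and 11.01 CPM with sham and 8.76, 8.15, 6.89, 7.48 and 8.95 CPM with Glenn surgery. The excess diet gave 10.4, 8.65, 9.37, 7.95 and 8.78 CPM and 6.79, 7.64, 8.59, 7.84 and 7.65 CPM. The groups overlapped on the deficient and excess diets. They did not overlap on the control diet, but the share of all genes with such a single-diet gap was not counted.

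Hilpda changed by -0.44 (SE 0.11, adjusted p 0.00346) on the control diet, -0.26 (SE 0.11, adjusted p 0.087) on the deficient diet and -0.29 (SE 0.12, adjusted p 0.0873) on the excess diet, and by -0.33 (SE 0.06, adjusted p 9.82e-05) averaged. With pan-endothelial scaling none of these was past the threshold, the averaged value turned to 0.03 (adjusted p 0.708) and the control-diet value had an adjusted p of 0.998. Relative to the shift of all genes under that scaling, Hilpda stood at -0.43, -0.24 and -0.26 on the control, deficient and excess diet and -0.31 averaged. These values are near the reported ones by construction, as for Cd93, and do not test them. Among low RT1-CE16 libraries the control-diet change was -0.54 (adjusted p 0.0608). On the deficient diet leaving out sham deficient replicate 3 made it a call, at -0.31 (adjusted p 0.042). Pnpla2 changed by 0.14 (SE 0.05, adjusted p 0.012) averaged, and the lipid droplet coat gene Plin2 had no call at -0.05 (SE 0.06, adjusted p 0.466), but was 0.30 (adjusted p 4.63e-06) with pan-endothelial scaling.

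The HIF subunits and the growth factor for aerocytes moved as follows. Hif1a rose from 111 ± 9.96 to 166 ± 16.2 CPM and Epas1 (HIF-2 alpha) fell from 5411 ± 506 to 2765 ± 442 CPM (SD, n = 15 per surgery), with log2 values of 0.58 (SE 0.05, adjusted p 1.76e-11) and -0.95 (SE 0.06, adjusted p 6.06e-14). Vegfa, an established HIF target that is made mostly by alveolar epithelium, fell from 1316 ± 196 to 388 ± 56.1 CPM (SD, n = 15 per surgery), with a log2 change of -1.77 (SE 0.06, adjusted p 7.15e-19). In the same libraries the 6 type 2 alveolar markers were lower, while 4 of 5 type 1 alveolar markers were higher and 1 lower, and their part in the Vegfa value was not tested. Of the 17 partners and relatives listed, 16 were measured, and 5 were higher and 9 lower averaged over diets (23.4% and 24.7% of all genes), with a median log2 change of -0.20. With pan-endothelial scaling 8 were higher and 4 lower, where 63.4% of all genes were higher and 5.45% lower. Between Glenn diets Epas1 was higher on excess than on control by 0.42 (SE 0.11, adjusted p 0.0467), which was 0.24 (adjusted p 0.262) with that scaling and 0.41 (adjusted p 0.0533) with DESeq2 size factors. Kit's ligand, the remaining one, was not analysed here.

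**Figure D2:**
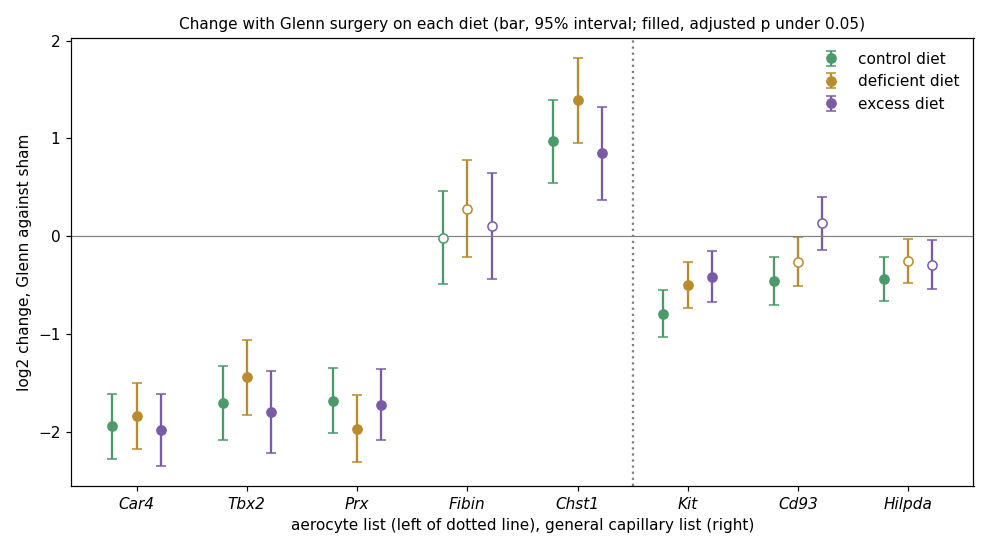
The log2 change from sham to Glenn surgery is plotted for each gene and diet, with bars for the 95% interval and filled points for adjusted p under 0.05. Car4, Tbx2 and Prx lie between -1.98 and -1.44 on every diet, Chst1 between 0.85 and 1.39, Fibin around 0, and Cd93 crosses from -0.46 on the control diet to 0.13 on the excess diet; with pan-endothelial scaling the averaged Cd93 and Hilpda values lie above 0.

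Diet alone gave no call for any of the 8 genes, by edgeR's adjusted p, in any of 6 comparisons. After sham surgery the background was 0.241% of genes called for excess against control, 0% for deficient against control and 0.0124% for excess against deficient. After Glenn surgery it was 1.47%, 0.00618% and 0% in the same order. The smallest unadjusted p values fell in the Glenn groups: Cd93 for excess against control, Kit (0.26, adjusted p 0.479) and Hilpda (0.25, adjusted p 0.455) for deficient against control, and Cd93 and Chst1 (-0.45, adjusted p 0.95) for excess against deficient. An unadjusted p under 0.05 was reached by 0 of the 8 genes in each sham comparison and by 1, 2 and 2 in those 3 Glenn comparisons. DESeq2 called 1, Cd93 in Glenn excess against Glenn control, and 0 in the other 5, and limma voom called 0 in all 6. The surgery-by-diet test of edgeR called 0 of the 8 genes, against 0.00618% of all genes, with 1 at an unadjusted p under 0.05 and 0 called by DESeq2 or limma voom. A difference between diets in the size of the surgery effect was therefore not established for any member, including those called on 1 diet and not another.

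Car4, Tbx2 and Prx shared the order of their group levels by surgery but not by diet. The means of Car4 (CPM ± SD, n = 5) were, from the highest, sham excess at 452 ± 81.7, sham deficient at 407 ± 78.2, sham control at 369 ± 28.7, Glenn excess at 123 ± 22.5, Glenn deficient at 111 ± 23.2 and Glenn control at 95.8 ± 23.6. The means of Tbx2 (CPM ± SD, n = 5) were, from the highest, sham deficient at 183 ± 52.1, sham excess at 163 ± 38.9, sham control at 162 ± 35.5, Glenn deficient at 62.1 ± 8.74, Glenn excess at 56.5 ± 12.2 and Glenn control at 49.7 ± 11.6. The means of Prx (CPM ± SD, n = 5) were, from the highest, sham deficient at 553 ± 121, sham excess at 472 ± 43.9, sham control at 431 ± 40.5, Glenn excess at 143 ± 43.5, Glenn deficient at 141 ± 8.60 and Glenn control at 134 ± 25.8. Within each surgery no neighbouring means of these 3 genes differed by edgeR's adjusted p, and the libraries of the lowest sham group lay above those of the highest Glenn group. The means of Chst1 (CPM ± SD, n = 5) were, from the highest, Glenn deficient at 78.4 ± 19.4, Glenn excess at 62.1 ± 25.2, Glenn control at 61.9 ± 22.98, sham deficient at 31.6 ± 4.53, sham control at 31.5 ± 3.35 and sham excess at 27.2 ± 4.82. The means of Fibin (CPM ± SD, n = 5) were, from the highest, Glenn deficient at 34.2 ± 6.88, sham deficient at 29.8 ± 9.70, sham control at 29.1 ± 8.50, Glenn control at 28.8 ± 8.37, Glenn excess at 26.2 ± 6.55 and sham excess at 21.9 ± 4.48. No neighbouring means of Fibin, and no Chst1 means within a surgery, differed by edgeR's adjusted p.

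Among the general capillary genes, Kit and Hilpda also had every sham mean above every Glenn mean, while Cd93 did not. The means of Kit (CPM ± SD, n = 5) were, from the highest, sham control at 538 ± 97.2, sham deficient at 516 ± 47.9, sham excess at 490.3 ± 77.9, Glenn deficient at 367 ± 36.2, Glenn excess at 360.0 ± 43.4 and Glenn control at 311 ± 32.05. The means of Cd93 (CPM ± SD, n = 5) were, from the highest, sham control at 1000.0 ± 146, Glenn excess at 984 ± 124, sham excess at 926 ± 131, sham deficient at 922 ± 102, Glenn deficient at 779 ± 89.8 and Glenn control at 727 ± 130.3. The Glenn excess mean of Cd93 thus stood among the sham means. The means of Hilpda (CPM ± SD, n = 5) were, from the highest, sham deficient at 9.75 ± 1.12, sham excess at 9.03 ± 0.914, sham control at 8.85 ± 0.975, Glenn deficient at 8.04 ± 0.865, Glenn excess at 7.70 ± 0.639 and Glenn control at 6.55 ± 0.716. No neighbouring means of these genes within a surgery differed by edgeR's adjusted p.

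The order of the log2 changes within each diet placed Car4, Prx and Tbx2 lowest and Chst1 highest. On the control diet the 95% intervals of the 3 lowest overlapped: Car4 (-2.28 to -1.61), Tbx2 (-2.08 to -1.33) and Prx (-2.02 to -1.35). Kit followed (-1.03 to -0.56), then Cd93 (-0.71 to -0.22) and Hilpda (-0.66 to -0.21), whose intervals overlapped that of Kit, and Fibin (-0.49 to 0.46).

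Other genes of the 2 cell types were counted from lists that did not contain the 8. Of 10 further aerocyte genes, 4 were lower and 3 higher averaged over diets, against 24.7% and 23.4% of all genes, with a median log2 change of -0.38. With pan-endothelial scaling 4 were lower and 3 higher, against 5.45% and 63.4% of all genes. The median of the 10 was then -0.009, and that of all genes 0.34. The endothelin receptor Ednrb fell from 582 ± 136 to 260.2 ± 47.05 CPM, the prostaglandin-degrading enzyme Hpgd from 203 ± 43.9 to 84.2 ± 15.5 CPM and the VEGF-A receptor Kdr from 1263 ± 206 to 708 ± 95.5 CPM (SD, n = 15 per surgery), with log2 values of -1.21 (SE 0.09, adjusted p 7.70e-12), -1.30 (SE 0.10, adjusted p 8.93e-12) and -0.85 (SE 0.08, adjusted p 3.09e-10). The VEGF co-receptor Nrp1 changed by -0.74 (SE 0.06, adjusted p 1.91e-11). The ligand apelin (Apln), a marker of aerocytes, rose from 184 ± 36.8 to 476 ± 88.8 CPM (SD, n = 15 per surgery), at 1.36 (SE 0.11, adjusted p 3.21e-11) on the log2 scale, and Cdkn2b, a cell cycle inhibitor, and the sialomucin Emcn were also higher, at 0.51 (SE 0.13, adjusted p 0.00165) and 0.21 (SE 0.08, adjusted p 0.0218). On single diets 4 of the 10 were lower on each, against 13.1%, 13.7% and 10.4% of all genes on the control, deficient and excess diet, and 3, 2 and 1 were higher, against 11.8%, 13.7% and 11.6%. Rprml, Sostdc1 and Tmeff2, at group means near or under 1 CPM, had no call. Chst1 thus shared its direction with Apln, Cdkn2b and Emcn, and Car4, Tbx2 and Prx shared theirs with Ednrb, Hpgd, Kdr and Nrp1.

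Of 10 further general capillary genes, 8 were lower and 1 higher averaged over diets, against 24.7% and 23.4% of all genes, with a median log2 change of -0.61. With pan-endothelial scaling 5 were lower and 2 higher, against 5.45% and 63.4%, and Tek, Aplnr and Ptprb were no longer called, the last 2 at values above 0. The incretin receptor Glp1r fell from 390.1 ± 78.1 to 40.7 ± 13.6 CPM, the diaphragm protein Plvap from 5149 ± 651 to 1563 ± 545 CPM, the lipase Lpl from 616 ± 118 to 196 ± 65.4 CPM and the semaphorin Sema3c from 831 ± 127 to 312 ± 75.4 CPM (SD, n = 15 per surgery). Their log2 changes were -3.26 (SE 0.15, adjusted p 8.59e-16), -1.69 (SE 0.09, adjusted p 4.76e-15), -1.64 (SE 0.11, adjusted p 2.25e-12) and -1.47 (SE 0.09, adjusted p 2.25e-13). The chemokine Cxcl12 changed by -0.81 (SE 0.12, adjusted p 2.62e-06). On the control diet 8 of the 10 were lower, on the deficient diet 5 and on the excess diet 4 (13.1%, 13.7% and 10.4% of all genes), and Btnl9 was higher on each. The apelin receptor Aplnr had -0.32 (SE 0.07, adjusted p 2.91e-04), and 0.03 (adjusted p 0.728) with pan-endothelial scaling. Btnl9 rose at a low level, from 1.51 ± 0.447 to 7.60 ± 2.46 CPM (SD, n = 15 per surgery) and 2.26 (SE 0.16, adjusted p 1.32e-12) on the log2 scale. Gpihbp1, the capillary anchor of lipoprotein lipase, had no call at 0.10 (SE 0.12, adjusted p 0.502), but was 0.45 (adjusted p 3.68e-04) with pan-endothelial scaling. Plvap was the gene of this list with a call for diet, being higher in Glenn excess than in Glenn control libraries by 0.86 (SE 0.17, adjusted p 0.0106).

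**Figure D3:**
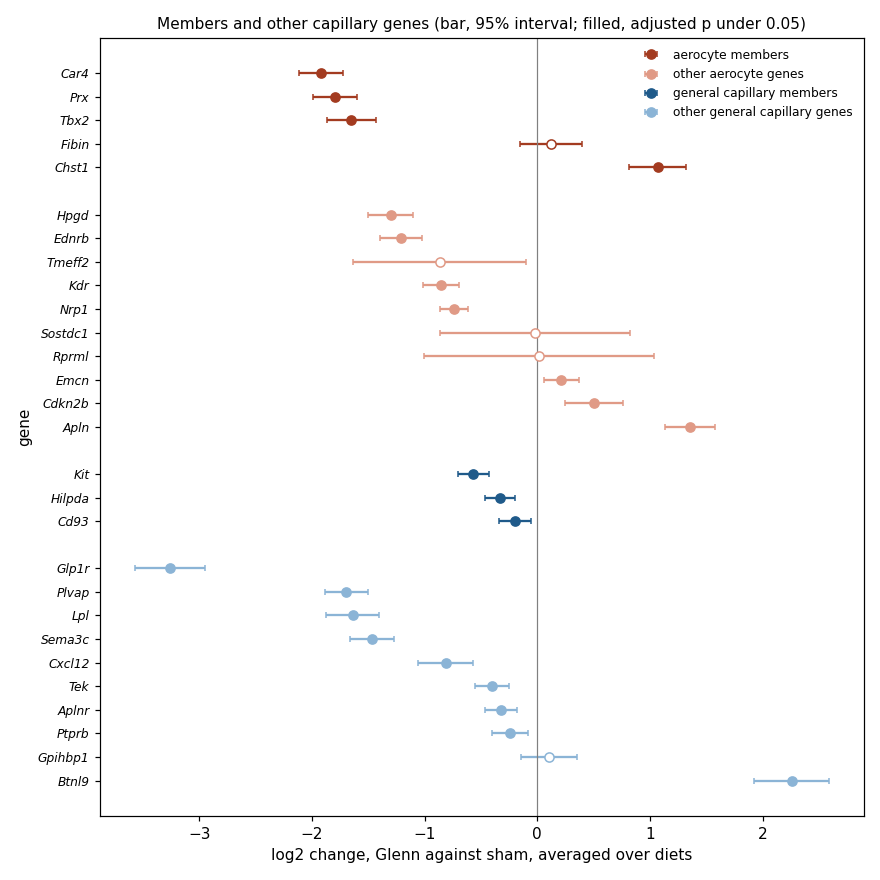
Averaged log2 changes from sham to Glenn surgery are shown for the 8 genes and the 20 further capillary genes, grouped by list, with 95% intervals and filled points for adjusted p under 0.05. The aerocyte lists hold changes from -1.92 (Car4) to 1.36 (Apln), and the general capillary lists from -3.26 (Glp1r) to 2.26 (Btnl9); with pan-endothelial scaling the averaged Cd93, Hilpda, Aplnr and Ptprb values lie above 0.

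Over the 30 libraries Car4, Tbx2 and Prx were closely related, with Pearson r of 0.92 (Car4 and Tbx2), 0.94 (Car4 and Prx) and 0.93 (Tbx2 and Prx). In deviations from the 6 group means these fell to 0.22, 0.12 and 0.34, so most of the shared variation lay between the groups. The opposite held for Tbx2 and Fibin, at 0.02 over all libraries and 0.52 within groups. Fibin and Cd93 were inversely related in both, at -0.49 and -0.55. These values are descriptions over libraries that share their groups, cells and preparation.

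**Figure D4:**
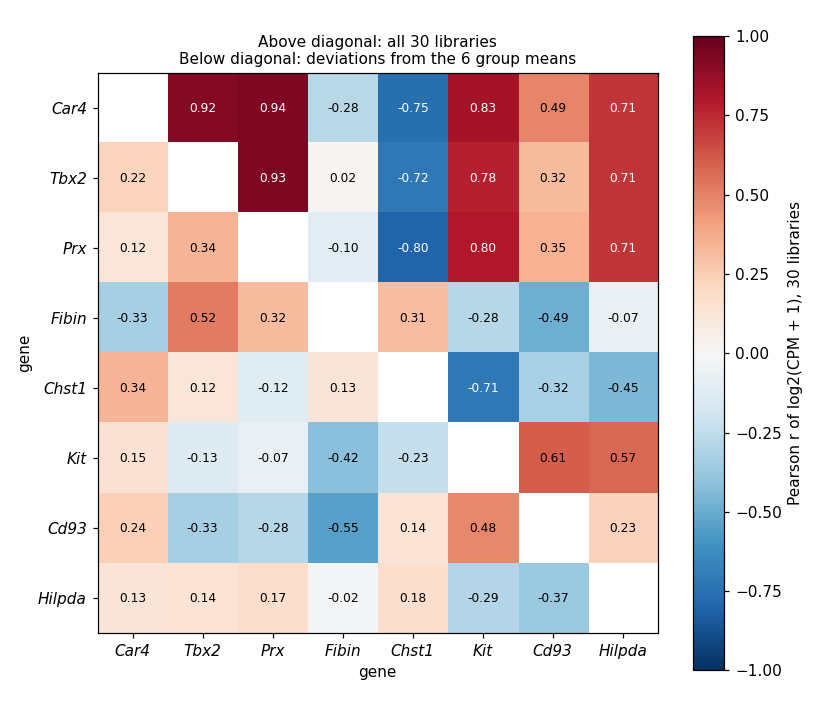
Pearson r of log2(CPM + 1) between each pair of the 8 genes is shown over the 30 libraries above the diagonal and, below it, over the deviations from the 6 group means. The block of Car4, Tbx2 and Prx is at 0.92 to 0.94 above the diagonal and at 0.12 to 0.34 below it.

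The nearest genes in pattern over the 30 libraries were sought for each of the 8 among 12718 genes, keeping those whose average reached 1 CPM. Car4 was most like Slc29a1 (r 0.97), a nucleoside transporter, and Serpina1 (0.97). Tbx2 was most like the aerocyte gene Ednrb (0.95) and Qpct (0.95), and Ednrb was also among its 2 closest in deviations from the group means (0.76). Prx was most like Fmo1 (0.98) and the tetraspanin Cd9 (0.97). Chst1 was most like Gprc5b (0.92) and Lmbr1 (0.92), whose averaged log2 changes were 1.41 and 1.03. Kit was most like the interferon receptor Ifnar1 (0.93) and Hilpda most like Dlst (0.78). In deviations from the group means the closest gene to Hilpda was Angptl4 (0.62), which encodes an inhibitor of lipoprotein lipase, and the closest to Chst1 were Ak3 (0.81) and the glucose transporter Slc2a3 (0.80). For Kit they were Nin (0.78) and Plxnd1 (0.77), and for Cd93 the spermine synthase Sms (0.79) and Cd38 (0.78). As above, these points share libraries, depth and preparation, and the values carry no test.

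The direction of the averaged changes was set against 42 other ways of processing, 30 of which left out 1 library each. Car4, Tbx2 and Prx kept their direction and call in every one, with averaged log2 changes from -1.98 to -1.57, -1.71 to -1.29 and -1.87 to -1.43. Chst1 ranged from 0.99 to 1.42 and Kit from -0.61 to -0.21, all called. Fibin ranged from 0.06 to 0.48. Within series A alone, the averaged values were -1.87 for Car4, -1.53 for Tbx2, -1.62 for Prx, 0.99 for Chst1 and -0.58 for Kit, and no fit was made within series B, with its 3 sham deficient, 2 Glenn deficient and 3 Glenn excess libraries. Cd93 ranged from -0.24 to 0.15 and Hilpda from -0.36 to 0.03, and the pan-endothelial scaling gave the values above 0.

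**Figure D5:**
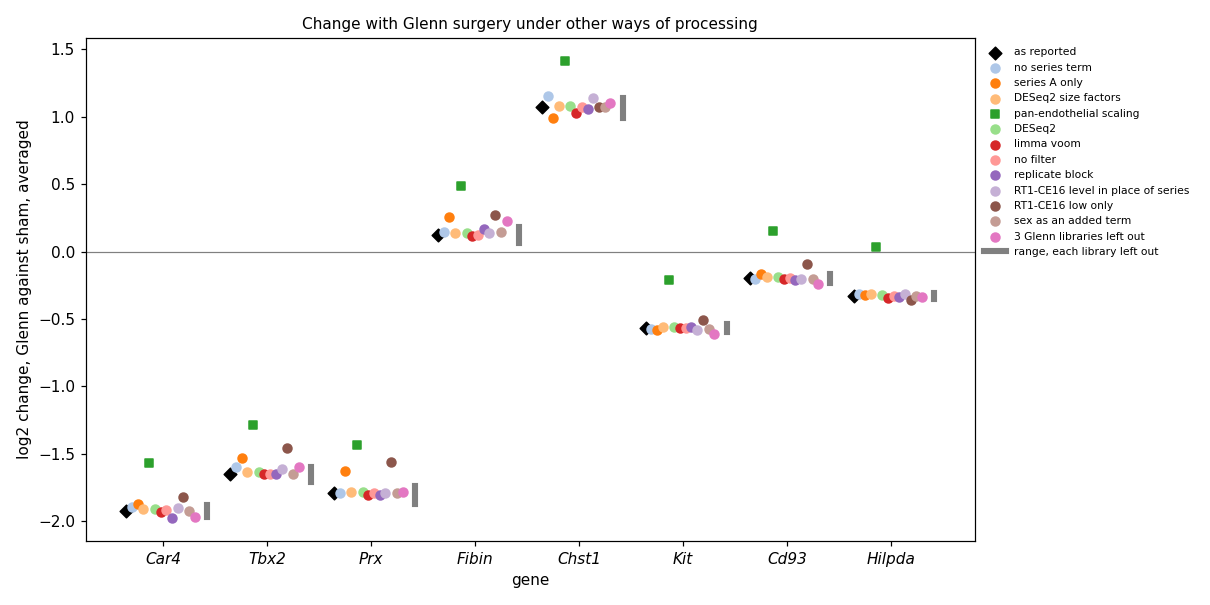
The averaged log2 change of each gene is shown as reported (diamond), under the pan-endothelial scaling (square) and under each other setting (circles), with a grey bar for the range when each library is left out in turn. The square lies above the other points for all 8 genes, and above 0 for Cd93 and Hilpda.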

How the data were processed

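RNA sequencing of CD31+ lung cells gave 1 table with a column for each of the 30 libraries. Its deposited values were the authors' estimated counts of reads for each gene from salmon, as the table's name has it. The submitters' processing notes name FastQC, Trim Galore, Picard, STAR and Salmon, with the builds mRatBN7.2 and rn7, and give no versions. The labels' protocols name a PureLink kit for RNA and a SMART-Seq low-input kit for libraries. Strandedness and the annotation release are not given in the sources used here. All sample columns were used.

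Estimated counts were rounded (13.6% were not whole). Gene names shared by several rows (946 rows) were told apart by identifier. Genes were kept by filterByExpr (minimum count 10, minimum total 15) with TMM factors of 0.938 to 1.06. A single quasi-likelihood fit of edgeR 4.0.16 in R 4.3.3 held 6 group means and the library series as a term, with Benjamini-Hochberg adjustment over 16171 genes and a threshold of 0.05. Standard errors came from the log2 change and its F value. Depth was 22.03 to 77.65 M counts. The 60 within-group pairs had Spearman rho of 0.981 to 0.993 and differed by more than sampling noise.

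Alternatives were a fit without the series, one of series A only, DESeq2 size factors, scaling by pan-endothelial markers, DESeq2 1.42.0, limma 3.58.1 voom, no filter, a replicate block, only the groups compared, and each library left out. After seeing the data, RT1-CE16 level, low RT1-CE16 libraries alone, a sex term and Glenn replicate 1 of each diet left out together were added. Sex was not taken from the labels but from the level of Ddx3y, with 13 libraries set as male and 17 as female. The test was checked on simulated data. The named genes were the 8 capillary genes, 20 further capillary genes, 17 partners and relatives, and per gene the 2 most alike by Pearson correlation of log2(CPM + 1). These genes and lists were chosen with earlier results of these data known. Promoters came from RefSeq's GRCr8 table, and motifs were searched on both strands. Figures were drawn with matplotlib 3.10.9.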

Additional observations from a re-analysis of the deposited data

Results flagged for a closer look

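The Cd93 level of Glenn control replicate 1 was far from its group. It was 949 CPM, against 631 to 718 CPM in the other 4 Glenn control libraries, and its gap to the nearest of them was 0.728 of the group's range, above Dixon's critical value of 0.71. This was 1 of 48 sets of 5 libraries examined, of which chance flags about 1 in 20, or 2.4. Without this library the control-diet change of Cd93 was -0.58 (edgeR, adjusted p 4.20e-04), and the same library had the fewest genes with a count, 16717.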

How the results depend on the processing

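Of 888 surgery values (8 genes under every alternative), 854 kept their direction and side of the threshold, 14 changed sign, 17 lost a call and 3 gained one. Car4, Tbx2 and Prx kept both in all 111 each. The 5 calls on the excess diet became 3 in series A alone and among low RT1-CE16 libraries (the same 7 libraries on this diet) and without Glenn excess replicate 2 (range 3 to 5 with a library left out). For Glenn excess against Glenn control the count of 0 became 1 with DESeq2 and without Glenn control replicate 1 (range 0 to 1). Pan-endothelial scaling turned Cd93 to 0.075 (deficient) and 0.15 (averaged), Hilpda to 0.085 (deficient), 0.021 (excess) and 0.035 (averaged), and Fibin to 0.43 on the control diet. That Fibin value, -0.02 as reported, was also 0.047 with the RT1-CE16 term, 0.034 among low RT1-CE16 libraries, 0.11 with Glenn replicate 1 of each diet left out together, and -0.17 to 0.11 with single libraries left out. For Fibin on the excess diet the range with single libraries left out was -0.095 to 0.32, below 0 without Glenn excess replicate 2. Of 1104 diet values 80 changed sign, 0 of them called, and 2 gained a call. Over all genes, higher and lower calls of 1907 and 2116 on the control diet became 8507 and 520 with pan-endothelial scaling, 2215 and 2208 became 6692 and 561 on the deficient diet, 1868 and 1681 became 5208 and 483 on the excess diet, and 3790 and 4002 became 10246 and 882 averaged. All calls on the control diet were 4023, and 1563 among low RT1-CE16 libraries. On the deficient diet 4423 became 2553 in series A and 2398 among low RT1-CE16 libraries, and on the excess diet 3549 became 2270 and 2152. Diet calls over all genes ranged with the alternative from 0 to 210 (reported 39) for sham excess against control, 0 to 26 (0) for sham deficient against control, 0 to 12 (2) for sham excess against deficient, 0 to 557 (237) for Glenn excess against control, 0 to 63 (1) for Glenn deficient against control, 0 to 18 (0) for Glenn excess against deficient and 0 to 35 (1) for surgery by diet. Same-numbered libraries had correlated deviations over 0.1 in 3, 1 and 3 of 5 pairs on the 3 diets. On those diets 3, 2 and 5 of 10 libraries correlated best with their own number. These values do not settle whether the numbers pair libraries, and the reported fit held no pairing. With the replicate block Kit on the excess diet was -0.38 (edgeR, adjusted p 0.064), and Glenn excess against control gave 34 calls over all genes, against 237 reported. A fit of only the groups compared was not run for the averaged and interaction tests. Depth did not limit the 8 genes to single counts, the fewest being 206 for Hilpda.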
